A study of Homo sapiens with 8 samples.

Results

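The loci of 6 p53 target genes that act in or around the intrinsic (mitochondrial) route to apoptosis, BAX, BBC3, PMAIP1, AEN, TP53I3 and TP53INP1, were examined in the p53 binding profiles of U2OS cells. Member peaks were taken by position alone, as every listed p53 peak with at least 1 bp inside a window around a gene. Each window, in the human genome build hg18, holds the gene and about 10 kb on each side. The genes were chosen with earlier results of these data known. The windows were chr19:54139000-54167000 for BAX, chr19:52405000-52438000 for BBC3, chr18:55708000-55733000 for PMAIP1, chr15:86955000-86987000 for AEN, chr2:24143000-24172000 for TP53I3 and chr8:95997000-96041000 for TP53INP1. Together they span 191 kb and held 37 of the 24535 peaks in the 4 lists.

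U2OS is an established human osteosarcoma line that carries its own wild-type p53, per the labels' protocols. The 4 conditions were untreated cells, the solvent DMSO at 0.1%, Nutlin-3 at 10 µM and doxorubicin at 0.6 µg/ml, all labelled 24 h, and chromatin was precipitated with the p53 antibody DO-1. The labels make no treatment the control of doxorubicin and DMSO the control of Nutlin-3. There was 1 ChIP library (and 1 input) for each, so differences between conditions have no replicate check and no test was made.

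In the intrinsic pathway, stress signals converge on proteins of the BCL2 family at the outer mitochondrial membrane. BH3-only proteins such as PUMA and NOXA neutralise the survival members of the family, BAX then forms pores, and cytochrome c leaves the mitochondrion and sets off the caspases. The tumour suppressor p53 is a transcription factor that switches on several of these genes by binding response elements near them. Doxorubicin, a topoisomerase II poison, activates p53 through DNA breaks, whereas Nutlin-3 blocks the contact between p53 and its ubiquitin ligase MDM2 and so stabilises p53 without breaking DNA.

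A p53 response element is a pair of 10-base units, each made of 3 purines, C, A or T at 2 positions, G and 3 pyrimidines. To describe how close promoter letters come to such an element, the 250 bases before each annotated gene start were searched with this consensus. No spacer was allowed between the units, and the consensus reads the same on both strands. The sequences are RefSeq's, in build GRCh38.p14, and matched 5 of the 6 genes (AEN, PMAIP1, BAX, TP53I3 and BBC3, not TP53INP1). The best 20-base stretch of each follows, 5′ to 3′ on the strand of the gene, with bases that fit the consensus in capitals.
AEN: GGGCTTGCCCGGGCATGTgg
PMAIP1: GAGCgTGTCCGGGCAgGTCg
BAX: GcACTTaTCgGGAgATGCTC
TP53I3: AGGgTgGTTCtGctTAGCCC
BBC3: AGtCAAGTTTGAGaAgtCTg

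The stretch of AEN had 2 mismatches, and 0.561% of all 35116 promoters in the table had a stretch at least as close. That of PMAIP1 had 3, a closeness that 4.36% of promoters reached. BAX had 4 mismatches (22.1% of promoters) and TP53I3 and BBC3 had 5 each (64.5%), which is a common level of similarity. A match is a description of letters and not a site, and other starts of these genes and positions further away were not searched. The promoters of AEN and PMAIP1, the members with the closest matches, are printed with that stretch in capitals. In AEN the stretch lies 34 to 15 bases before the start, and in PMAIP1 185 to 166 bases before it.
AEN, chr15:88621090-88621339, plus strand: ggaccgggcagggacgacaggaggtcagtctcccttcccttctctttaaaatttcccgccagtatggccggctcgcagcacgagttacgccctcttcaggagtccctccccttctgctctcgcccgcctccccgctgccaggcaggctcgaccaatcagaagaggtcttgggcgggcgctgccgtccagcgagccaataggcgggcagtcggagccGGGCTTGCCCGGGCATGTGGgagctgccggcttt
PMAIP1, chr18:59899746-59899995, plus strand: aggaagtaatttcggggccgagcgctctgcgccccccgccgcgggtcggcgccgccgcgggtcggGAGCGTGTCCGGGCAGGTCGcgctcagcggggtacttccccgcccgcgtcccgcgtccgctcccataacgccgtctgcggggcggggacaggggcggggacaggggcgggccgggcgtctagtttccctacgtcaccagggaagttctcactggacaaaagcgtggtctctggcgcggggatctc
The peaks below are in hg18 and were not converted, so whether a peak covers these letters was not determined.

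All 6 windows held p53 peaks with Nutlin-3, 5 held them with DMSO, 4 with doxorubicin and 0 in untreated cells. The 37 peaks comprised 21 from Nutlin-3, 11 from DMSO and 5 from doxorubicin. BAX, BBC3, AEN and TP53INP1 were listed in the same 3 conditions (DMSO, doxorubicin and Nutlin-3), PMAIP1 in DMSO and Nutlin-3, and TP53I3 with Nutlin-3 only. Of the 5 windows with both DMSO and Nutlin-3 peaks, BBC3 and AEN had more of the latter, BAX and PMAIP1 as many and TP53INP1 fewer. When peaks of 40 bp, the smallest width in the lists, were left out, Nutlin-3 peaks remained in 4 windows, DMSO in 3 and doxorubicin in 3. AEN alone then kept all of DMSO, doxorubicin and Nutlin-3. BBC3 and PMAIP1 lost DMSO, BAX lost doxorubicin, and TP53INP1 and TP53I3 lost Nutlin-3. For comparison, the genome between the first and last listed peak of each chromosome was divided into 99294 bins of 30 kb, near the window lengths of 25 to 44 kb. Of these bins, 13.0% held a Nutlin-3 peak, 2.48% a DMSO peak, 2.56% a doxorubicin peak and 0.346% an untreated peak. The set of lists seen at BAX, BBC3, AEN and TP53INP1 occurred in 1.44% of bins, that of PMAIP1 in 0.781% and that of TP53I3 in 9.86%. Among the bins with a Nutlin-3 peak, 17.2% also held a DMSO peak, 17.4% a doxorubicin peak and 11.0% the set of 3 lists found at BAX. Among bins with both DMSO and Nutlin-3 peaks, 49.2% had more of the latter. The windows surround known p53 targets and the bins cover all of the genome, so the shares describe the setting and were not tested.

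**Figure D1:**
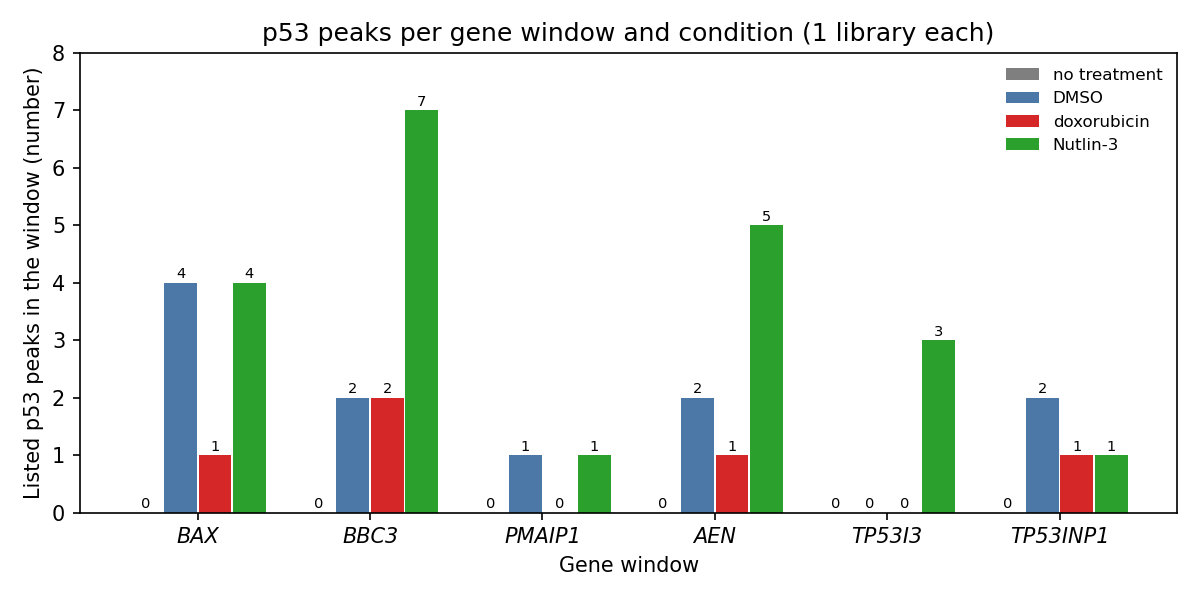
Number of listed p53 peaks (y axis) in each of the 6 gene windows (x axis), with 1 bar per condition and 1 library behind each bar. Nutlin-3 ranges from 1 peak at PMAIP1 and TP53INP1 to 7 at BBC3, and the untreated list is at 0 throughout.

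**Figure D2:**
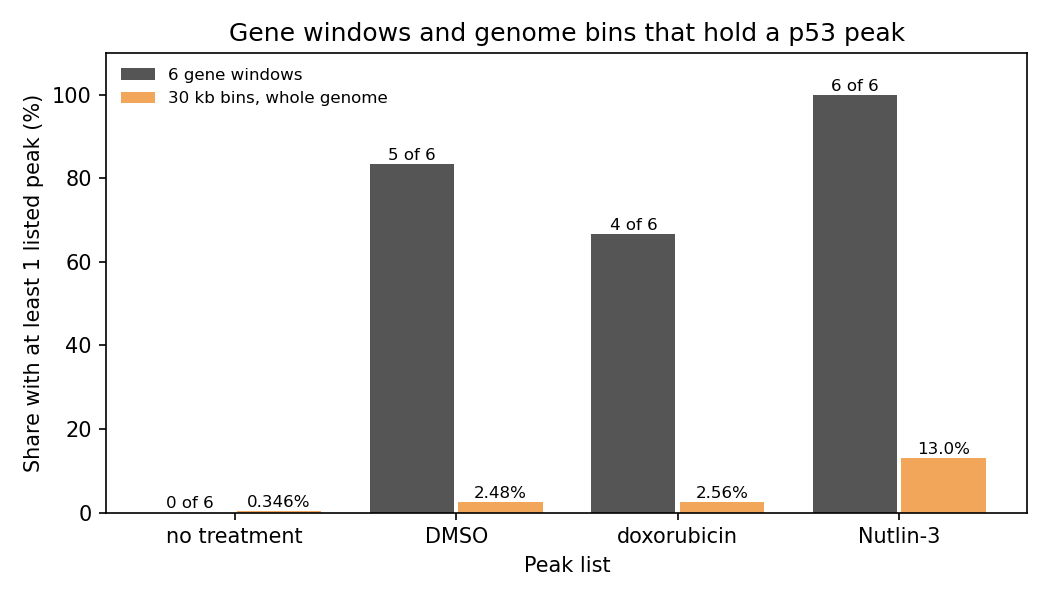
Share of the 6 gene windows and of 99294 genome bins of 30 kb (y axis, percent) that hold at least 1 peak of each list (x axis). The dark bars reach 6 of 6 windows for Nutlin-3, where 13.0% of bins hold a peak, and 0 of 6 for no treatment.

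BAX is the pore-forming effector of the pathway. Its window held 4 peaks with DMSO, 1 with doxorubicin and 4 with Nutlin-3, and 0 in untreated cells. All 9 lay in a single cluster of 1380 bp, chr19:54149571-54150951, in which peaks of DMSO and Nutlin-3 were interleaved. The doxorubicin peak, chr19:54150251-54150291, was 40 bp wide and had the same bounds as a DMSO peak. The Nutlin-3 peak chr19:54150271-54150311 overlapped both. The other DMSO peaks were 100, 40 and 100 bp wide, at chr19:54149791-54149891, chr19:54150611-54150651 and chr19:54150851-54150951. Of these, the last overlapped a Nutlin-3 peak of 180 bp (chr19:54150751-54150931), the middle one adjoined a Nutlin-3 peak of 40 bp (chr19:54150571-54150611) and the first lay 20 bp from one of 200 bp (chr19:54149571-54149771). BAX had the same number of peaks with Nutlin-3 as with its control DMSO, and a covered length of 460 bp against 280 bp, a ratio of 1.64. In the whole lists the ratios of Nutlin-3 to DMSO were 6.50 for peaks and 7.06 for covered length. At least 4 DMSO peaks occurred in 0.732% of the bins that held a DMSO peak, and at least 4 Nutlin-3 peaks in 3.21% of those with a Nutlin-3 peak.

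BBC3 encodes PUMA, a BH3-only protein that is among the strongest death-inducing targets of p53. Its window held most peaks of any of the 6: 2 DMSO, 2 doxorubicin and 7 Nutlin-3 peaks, with 0 in untreated cells. At least 7 Nutlin-3 peaks, as here, occurred in 0.286% of the bins with a Nutlin-3 peak. A cluster of 1620 bp, chr19:52426491-52428111, held 9 of the 11 peaks. At one edge of the cluster DMSO (chr19:52426491-52426531), doxorubicin (chr19:52426491-52426551) and Nutlin-3 (chr19:52426511-52426551) had 20 bp in common. The second doxorubicin peak, chr19:52427531-52427711, was 180 bp wide and contained the second DMSO peak, chr19:52427651-52427691. A Nutlin-3 peak of 40 bp, chr19:52427691-52427731, overlapped the end of that doxorubicin peak and adjoined the DMSO peak. BBC3 was thus the member with 2 places listed in DMSO, doxorubicin and Nutlin-3.

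The remaining Nutlin-3 peaks of BBC3 were in no other list. Inside the cluster these were chr19:52426811-52426931 (120 bp), chr19:52427111-52427171 (60 bp) and chr19:52428011-52428111 (100 bp). Outside it, a peak of 200 bp lay 3400 bp from the nearest DMSO or doxorubicin peak, at chr19:52422891-52423091. Another of 160 bp lay at chr19:52436271-52436431, on the side of the gene start and toward CCDC9, the next protein-coding gene in the RefSeq order of GRCh38.p14. Covered length was 720 bp with Nutlin-3 and 80 bp with DMSO, a ratio of 9.

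PMAIP1 encodes NOXA, a BH3-only protein that binds the survival factor MCL1. Its window held 1 DMSO peak and 1 Nutlin-3 peak, and 0 peaks with doxorubicin or no treatment. The Nutlin-3 peak, chr18:55717611-55717931, was 320 bp wide and the widest member in any list; 1.95% of Nutlin-3 peaks were at least as wide. The DMSO peak, chr18:55717931-55717971, had the smallest width in the lists, 40 bp, and began where the Nutlin-3 peak ended. The covered lengths differed by a ratio of 8 although the numbers of peaks were equal. The nearest doxorubicin peak lay 700.5 kb outside the window, and the nearest DMSO peak outside it 700.5 kb away.

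AEN, a nuclease that p53 induces and that takes part in the breakdown of DNA during apoptosis, had 5 peaks with Nutlin-3, 2 with DMSO, 1 with doxorubicin and 0 without treatment. At least 5 Nutlin-3 peaks occurred in 1.34% of the bins that held one, and at least 2 DMSO peaks, as at AEN, BBC3 and TP53INP1, in 10.4% of those with a DMSO peak. DMSO and Nutlin-3 each listed chr15:86965531-86965571 with identical bounds, and the doxorubicin peak, chr15:86965531-86965591, contained it. The second DMSO peak, chr15:86965771-86965831, lay 20 bp from the Nutlin-3 peak chr15:86965851-86965911, and both were 60 bp wide. Nutlin-3 peaks of 80 bp followed at chr15:86966391-86966471 and chr15:86967471-86967551 with no counterpart in the other lists. These 7 peaks spanned 2020 bp. The last Nutlin-3 peak, chr15:86982971-86983111, was 140 bp wide and lay 17140 bp from the nearest DMSO peak, on the side of ISG20, the next protein-coding gene. That peak was in the flank past AEN, and windows 5 kb shorter at each end left it out, with 4 Nutlin-3 peaks at AEN. The covered length was 400 bp with Nutlin-3 and 100 bp with DMSO, a ratio of 4.

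TP53I3 encodes a quinone oxidoreductase, PIG3, that is linked to the production of reactive oxygen species. It had 3 peaks, all from Nutlin-3 and all of 40 bp: chr2:24160691-24160731, chr2:24160931-24160971 and chr2:24161191-24161231. They spanned 540 bp, and at least 3 Nutlin-3 peaks occurred in 8.72% of the bins that held one. The nearest peaks of DMSO and doxorubicin both lay 387 kb outside the window, and the nearest Nutlin-3 peak outside it 239.6 kb away. Of the 6 genes, TP53I3 was the one with no peak in its window in either control or with doxorubicin. As 40 bp is the smallest width in the lists, no peak was left at TP53I3 when peaks of that width were left out.

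TP53INP1, a stress-induced protein that takes part in p53-dependent cell death and in autophagy, had 2 peaks with DMSO, 1 with doxorubicin, 1 with Nutlin-3 and 0 without treatment. DMSO and Nutlin-3 listed chr8:96030991-96031031 with identical bounds, 40 bp wide. The doxorubicin peak, chr8:96031011-96031071, was 60 bp wide and shared 20 bp with them. The second DMSO peak, chr8:96031431-96031531, was 100 bp wide, lay 400 bp from the Nutlin-3 peak and 360 bp from the doxorubicin peak, and was in no other list. TP53INP1 was the member with fewer Nutlin-3 than DMSO peaks, which was so in 1.43% of the bins that held both. Only bins with at least 2 DMSO peaks can show this, and those were 10.4% of the bins with a DMSO peak. Its covered length was 40 bp with Nutlin-3 and 140 bp with DMSO, a ratio of 0.286.

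**Figure D3:**
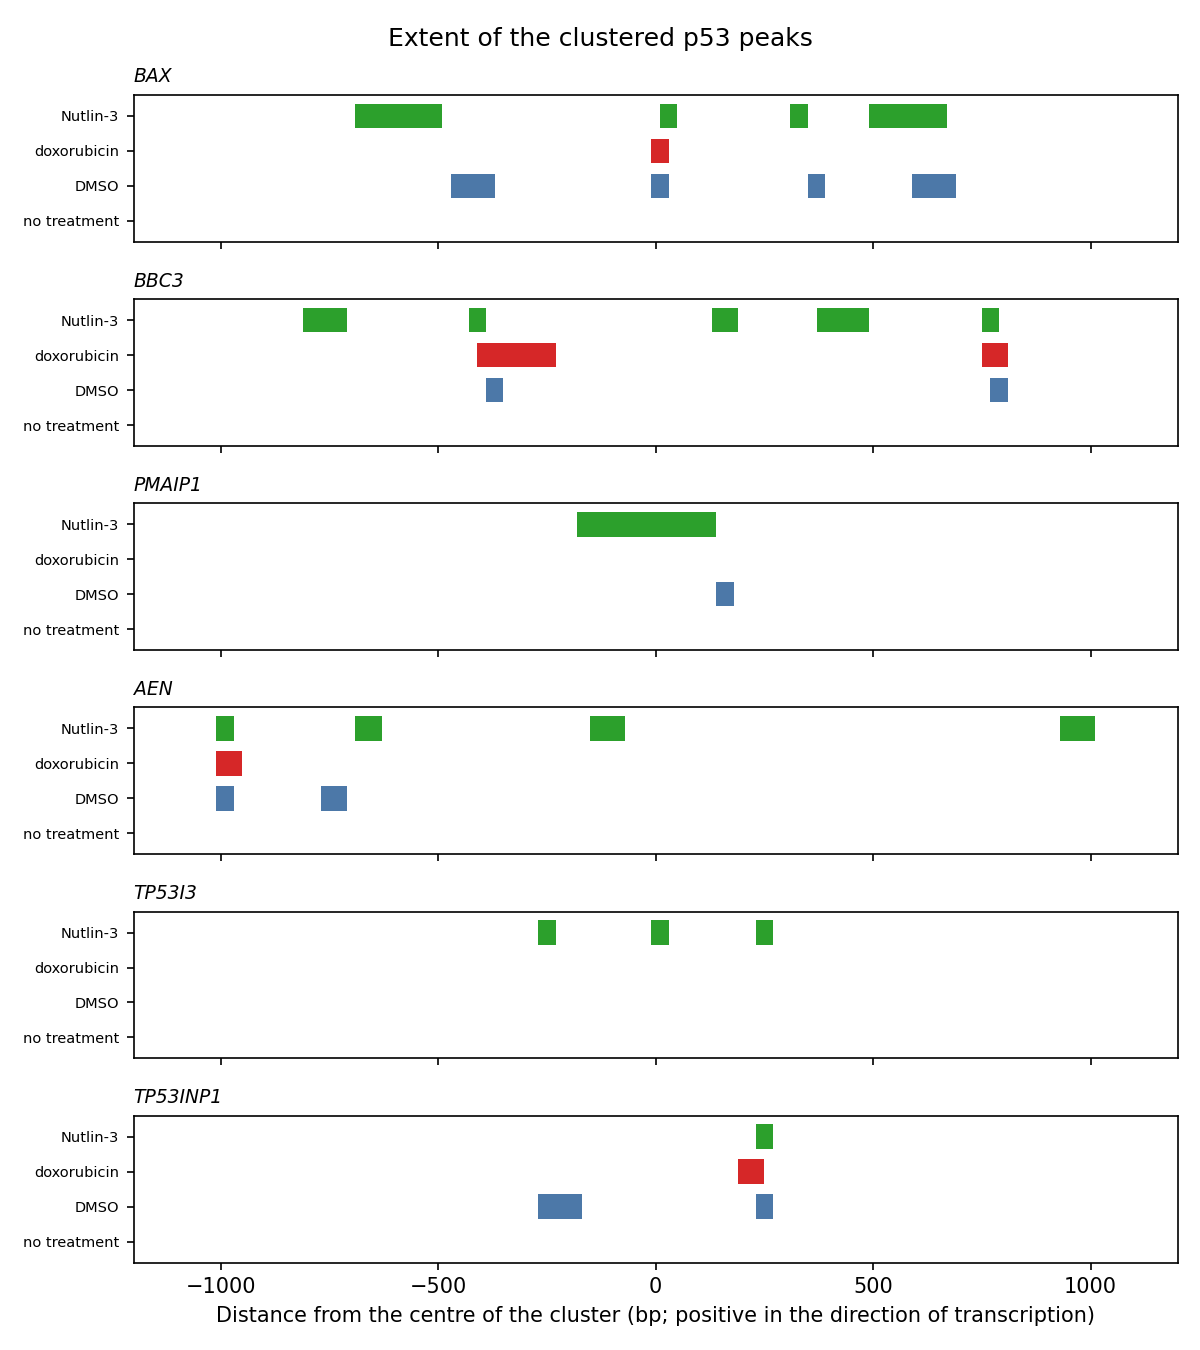
Clustered p53 peaks of each gene drawn to scale, with the distance from the centre of the cluster on the x axis (bp, positive in the direction of transcription) and a row per list; bars are peaks. In BAX, BBC3, AEN and TP53INP1 every doxorubicin bar overlaps a DMSO bar and a Nutlin-3 bar, whereas TP53I3 has 3 Nutlin-3 bars of 40 bp alone.

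The order of the genes in the Nutlin-3 list depended on the measure, and neither measure gives the strength of binding. By number of listed peaks it was BBC3 (7), AEN (5), BAX (4), TP53I3 (3), and PMAIP1 and TP53INP1 (1 each). By covered length it was BBC3 (720 bp), BAX (460 bp), AEN (400 bp), PMAIP1 (320 bp), TP53I3 (120 bp) and TP53INP1 (40 bp). When peaks within 500 bp of each other in a list were merged, BBC3 had 4 Nutlin-3 peaks, AEN 3 and the others 1 each. BBC3 came first each time, and with 1 library neighbours in the order cannot be told apart.

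The doxorubicin peaks at these genes were all at places listed with DMSO and Nutlin-3 too. Of the 5 peaks, 5 overlapped a DMSO peak and a Nutlin-3 peak (100%, exact 95% binomial interval 47.8 to 100), against 36.5% of all 3087 doxorubicin peaks. The interval takes the peaks as independent, although 2 of them lie in the BBC3 window and all come from 1 library. Joining overlapping or adjoining peaks gave 24 regions in the windows, 5 of them held by DMSO, doxorubicin and Nutlin-3 (20.8%), against 7.04% of all 19877 regions. Without peaks of the smallest width the windows had 0 of 19 such regions, against 1.13% of all regions made the same way, and with a reciprocal overlap of 50% they had 3 of 30, against 2.75%. With peaks of a list within 500 bp merged they had 5 of 11, against 7.86%. The median width of the 5 was 60 bp, against 100 bp for the 1400 regions of that class in the genome. The regions of BAX, AEN and the edge of the BBC3 cluster were 60 bp wide, that of TP53INP1 80 bp and the second of BBC3 200 bp. Of the other regions, 13 were held by Nutlin-3 alone (54.2%, against 76.0% of all regions), 3 by DMSO and Nutlin-3 (12.5%, against 3.90%) and 3 by DMSO alone (12.5%, against 2.93%). The last 2 classes rest on 3 regions each and depended on the setting. After merging within 500 bp they had 1 of 11 (against 3.89%) and 0 of 11 (against 2.68%). With the reciprocal overlap they had 1 of 30 (against 2.67%) and 7 of 30 (against 6.55%). Without peaks of the smallest width they had 1 of 19 (against 3.19%) and 3 of 19 (against 4.90%).

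DMSO and Nutlin-3 peaks at these genes often lay side by side. By an overlap of at least 1 bp, 5 of 11 DMSO peaks were found again with Nutlin-3 (45.5%, 16.7 to 76.6), against 70.4% of all DMSO peaks, a value inside the interval. As many, 5 of 11, overlapped doxorubicin, against 45.0%. A further 5 of the 11 adjoined a Nutlin-3 peak or lay 20 bp from one (45.5%, 16.7 to 76.6), against 10.3% of all DMSO peaks. These were 2 at BAX and 1 each at BBC3, PMAIP1 and AEN. The 11th, at TP53INP1, was 400 bp away. Positions in the lists lie on a 20 bp grid, so such gaps are at the limit of what the lists resolve. After merging within 500 bp, all 6 DMSO peaks fell in regions that also held Nutlin-3. DMSO alone then held 0 of 11 regions, against 2.68% of all regions. The shares above thus depend on how clusters were split into peaks. From the other side, 15 of 21 Nutlin-3 peaks overlapped no peak of another list (71.4%, 47.8 to 88.7), against 84.4% of the whole Nutlin-3 list. DMSO overlapped 5 of the 21 (23.8%, 8.22 to 47.2, against 10.9%) and doxorubicin also 5 (23.8%, 8.22 to 47.2, against 10.8%). Each of these shares of the whole Nutlin-3 list lies inside its interval.

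The 6 windows made up a larger share of the DMSO list than of the Nutlin-3 list. They held 11 of 2793 DMSO peaks (0.394%, 0.197 to 0.704), 5 of 3087 doxorubicin peaks (0.162%, 0.0526 to 0.378) and 21 of 18159 Nutlin-3 peaks (0.116%, 0.0716 to 0.177). The intervals of DMSO and Nutlin-3 do not overlap, but peaks in a window sit together and are not independent. With peaks within 500 bp merged, the shares were 0.232% (0.0850 to 0.503) for DMSO and 0.0676% (0.0338 to 0.121) for Nutlin-3, and the intervals overlap. In the windows Nutlin-3 had 1.91 times as many peaks as DMSO and 3.22 times the covered length, against 6.50 and 7.06 times in the whole lists. Doxorubicin had 0.455 times as many peaks as DMSO in the windows and 1.11 times as many in the whole lists, but this rests on 5 against 11 peaks. After merging they had 5 and 6 peaks, with a doxorubicin share of 0.173% (0.0562 to 0.404) whose interval overlaps that of DMSO, and without peaks of the smallest width they had 4 each. The untreated list had 0 of its 496 peaks in the windows, which allows a share of up to 0.605% by the limit of 3 counts and 0.741% by the exact interval. Both limits lie above the DMSO share, so at this list length a share like that of DMSO could go unseen in untreated cells. The nearest untreated peak lay 877 kb from the TP53I3 window and further from the other 5. The intervals cover counting error only, and sequencing depth is unknown for all 4 lists.

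Most of the peaks lay near the implied starts of the genes. Taking the gene's ends to be 10 kb inside the window's edges, which is uncertain by 1 kb or more because the windows are rounded, all 34 clustered peaks lay between -0.53 kb (before) and 2.55 kb (after) the implied start. The cluster of a window was the run with gaps of at most 2 kb that held most of its peaks, so it was picked from these same peaks. The clusters spanned 360 bp at PMAIP1 to 2020 bp at AEN. The other 3 peaks, 2 at BBC3 and 1 at AEN, were all from Nutlin-3. They lay 5.01 kb into BBC3, before it (at -8.35 kb) and 18.04 kb past the start of AEN, the last beyond the implied end of that gene. DMSO and doxorubicin had 0 peaks outside the clusters. Their lists are shorter, with 0.938 and 1.04 peaks per Mb of the genome against 6.10 for Nutlin-3, and the windows span 191 kb. The 0 counts thus do not set them apart from Nutlin-3, and the difference was not tested. No annotation of hg18 was used here, so peaks could not be set against exons, introns or promoters. The share of all listed peaks that lie this near a gene start is unknown for the same reason.

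**Figure D4:**
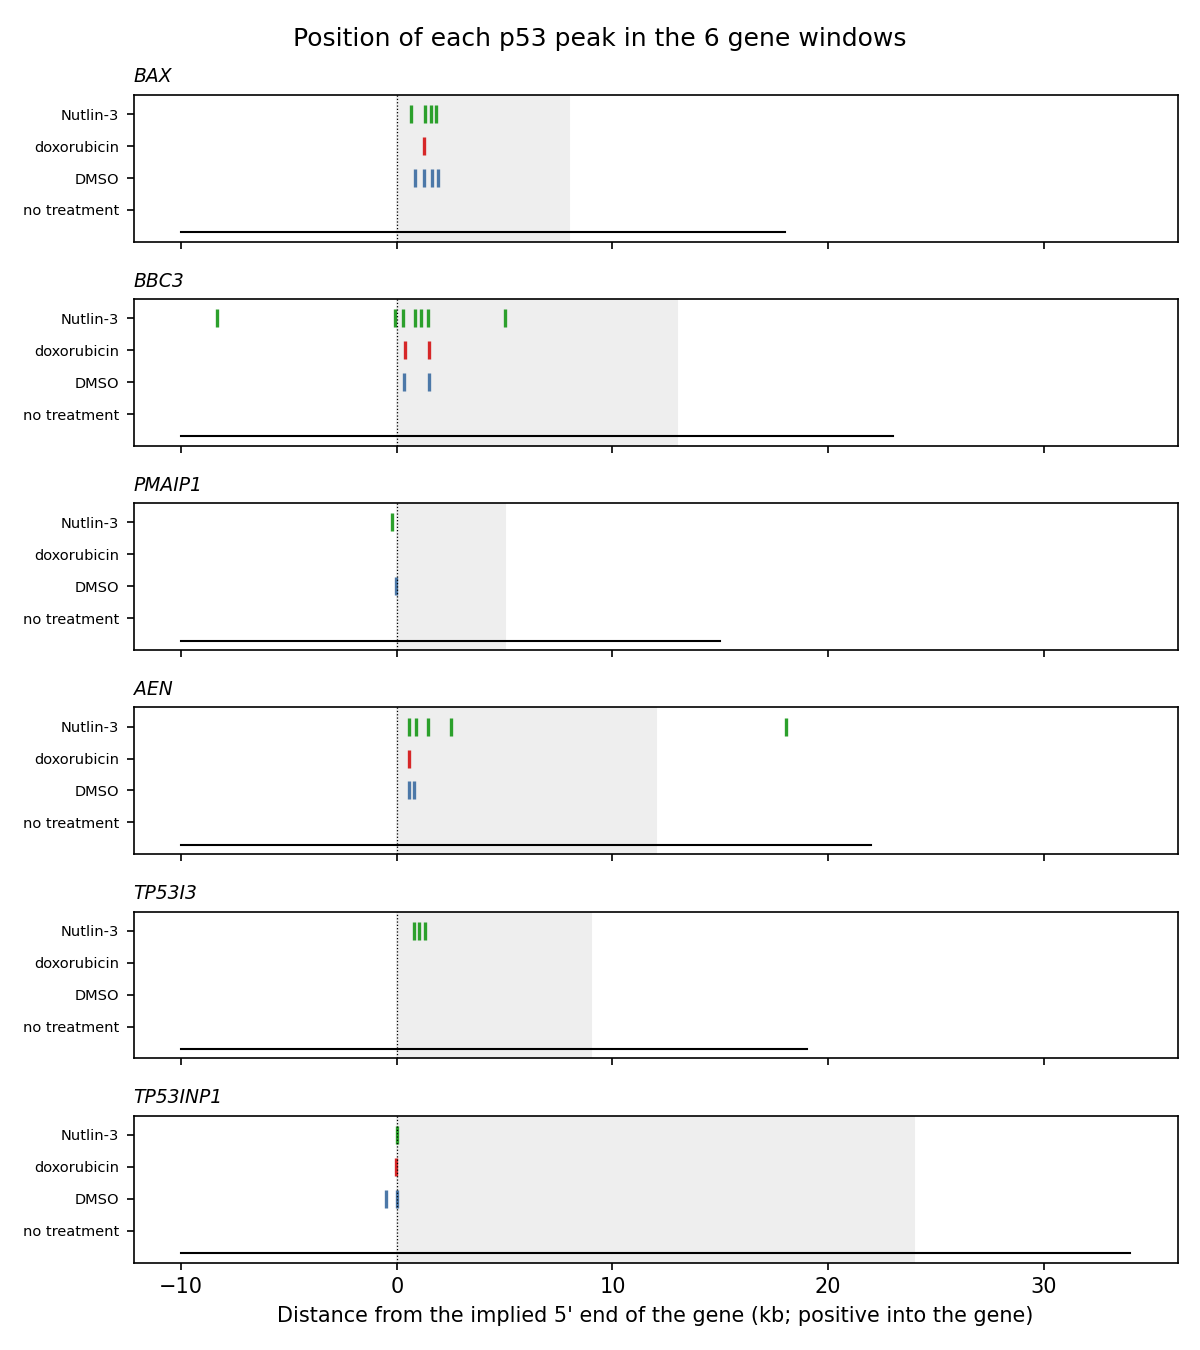
Position of every peak in the 6 windows as the distance of its midpoint from the implied start of the gene (x axis, kb, positive into the gene), with a row per list. The grey area is the implied gene and the black line the window; ticks crowd around 0, and 3 Nutlin-3 ticks, 2 at BBC3 and 1 at AEN, stand apart.

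Most peaks at these genes were narrow. The median width was 40 bp for DMSO (range 40 to 100), 60 bp for doxorubicin (40 to 180) and 60 bp for Nutlin-3 (40 to 320), and the median of each whole list was 60 bp. Peaks of the smallest width made up 7 of 11 DMSO peaks (63.6%, 30.8 to 89.1, against 47.5% of the list), 1 of 5 doxorubicin peaks (interval 0.505% to 71.6%, against 43.5%) and 9 of 21 Nutlin-3 peaks (42.9%, 21.8 to 66.0, against 34.6%). Each interval includes the share of the whole list. At PMAIP1, AEN and BBC3 the widest peak of the window was from Nutlin-3, and so it was at BAX with 200 bp. At TP53INP1 it was the DMSO peak of 100 bp that no other list held. As the lists give no height or count per peak, a narrow peak cannot be called a weak one, and more cells with p53 at a site and more p53 per cell cannot be told apart.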

How the data were processed

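Peaks of p53 ChIP-seq were taken from 4 lists, 1 per ChIP library of U2OS cells; the 4 inputs were not analysed here. The deposited lists have 3 columns (chromosome, start and end in bp) and no score, height or count. The submitters' processing notes name hg18, CASAVA and Bowtie 0.12.2; for peak caller, threshold and use of inputs, the sources used here give nothing. All 24535 widths were multiples of 20 bp. Positions are as deposited, with the end taken to lie outside the peak; whether starts count from 0 or 1 is not stated.

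Windows were applied as whole kb. Sharing means at least 1 bp in common, regions join overlapping or adjoining peaks, and intervals are exact (Clopper-Pearson, 95%). Python 3.11.15, numpy 2.4.6 and scipy 1.17.1 were used, and counting and overlap were tested on simulated peaks with planted overlaps, all of which were recovered. The strand of TP53INP1 is from general knowledge and that of the others from RefSeq. All 6 genes and all their peaks are named. The members, lists and comparisons were chosen with earlier results of these data known. A list of further apoptosis genes gave no result, because no hg18 annotation was used here. Alternatives were shorter and longer windows, whole peaks only, peaks wider than 40 bp, merging within 500 bp, a reciprocal overlap of 50% and joining within 200 bp.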

Additional observations from a re-analysis of the deposited data

Results flagged for a closer look

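At TP53INP1 the number of peaks moved in opposite directions in the 2 comparisons of treatment and control: doxorubicin minus no treatment was 1 (1 against 0 peaks) and Nutlin-3 minus DMSO was -1 (1 against 2 peaks). The untreated list had 0 peaks in all 6 windows, so doxorubicin minus no treatment could not be negative in any of them. With 1 library per condition the difference was not tested. When peaks within 500 bp were merged, DMSO, doxorubicin and Nutlin-3 each had 1 peak there.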

How the results depend on the processing

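Of 75 alternative values for the 13 counts, 60 stayed within 1.5 times the reported count and 15 did not. The 60 include the untreated counts, which stayed at 0 and could have changed only with longer windows. Windows 5 kb shorter or 10 kb longer and the whole-peak rule moved no count beyond 1.5 times. Leaving out peaks of the smallest width, 40 bp, gave 4 DMSO and 12 Nutlin-3 peaks and 3 windows with a DMSO peak. Of the 19 regions left, 0 were held by all of DMSO, doxorubicin and Nutlin-3, against 1.13% of all regions. DMSO and Nutlin-3 held 1, against 3.19%. Merging peaks within 500 bp gave 6 DMSO and 11 Nutlin-3 peaks and 11 regions. Of these regions, 5 were held by Nutlin-3 alone, against 75.4% of all regions. DMSO and Nutlin-3 held 1 (against 3.89%) and DMSO alone 0 (against 2.68%). A reciprocal overlap of 50% gave 30 regions, 3 of them with all of DMSO, doxorubicin and Nutlin-3, against 2.75% of all regions. DMSO and Nutlin-3 held 1 (against 2.67%) and DMSO alone 7 (against 6.55%). Joining within 200 bp left 1 region of 18 to DMSO alone, and the share over all regions was not computed for that setting. These alternatives drop, join or separate peaks by construction. The untreated list had 0 peaks in the windows under the 5 alternatives for counts of peaks. No paired analysis was possible because each condition has 1 ChIP library. For the same reason no library could be left out, and the depth behind the lists is unknown.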
